A study of Mus musculus with 4 samples.

Results

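The muscle-type actins are the 4 actin genes whose proteins build the contractile filaments of muscle. Acta1 encodes the skeletal muscle form, Actc1 the cardiac form, Acta2 the vascular smooth muscle form and Actg2 the enteric smooth muscle form. Their members were taken as every probe that the platform annotation gives to exactly 1 of these genes, which left 4 probes, 1 per gene, of 9480 on the array. The set was chosen by the log2 ratios of these probes on the same 4 arrays, read array by array, so everything below about the 4 genes themselves is a description without a test.

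RNA came from mouse embryonic stem (ES) cells, the pluripotent cells of the early embryo, grown without feeder cells. Each 2-colour cDNA array carried RNA of a mutant line together with RNA of wild-type ES cells. One mutant line, fosBd/d, is homozygous for an allele from which the truncated protein ΔFosB is the exclusive product, and the other, fosB-null, is labelled as null for fosB. Each mutant was measured on 2 arrays with exchanged dyes, and replicate 1 carried the mutant in Cy3 and replicate 2 in Cy5. Mutant and wild-type cells alike had spent 72 h without serum before 4 h of serum stimulation, per the series title. The number of clones behind each line and whether both arrays of a swap used the same extracts are not stated in the labels.

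Actins polymerise into the filaments that carry myosin, and muscle actin genes are best known from differentiated muscle, where each form dominates in its own tissue. In many cell types serum lowers the pool of free actin monomer. When that pool falls, the coactivators of the MRTF family enter the nucleus and bind serum response factor (SRF), which recognises a motif called the CArG box. The muscle actin genes carry such boxes, and FosB itself is a subunit of AP-1, another transcription factor that serum induces.

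The bases upstream of the transcription starts in a RefSeq promoter table are shown because the CArG box is the sequence feature these genes are known to share. A CArG box is written here as CC, then 6 letters that are A or T, then GG, which reads the same on both strands. Sequence (GRCm38.p6) was at hand for 3 of the 4 genes, and Actg2 is named only. Each line gives the 250 bases before the start used in that promoter table, 5′ to 3′ on the gene's strand, and capitals mark matches with at least 5 of the 6 core letters A or T. This looser form was chosen after the sequences were read, and none of the marked matches overlap.
Acta1, chr8:123894776-123895025, minus strand: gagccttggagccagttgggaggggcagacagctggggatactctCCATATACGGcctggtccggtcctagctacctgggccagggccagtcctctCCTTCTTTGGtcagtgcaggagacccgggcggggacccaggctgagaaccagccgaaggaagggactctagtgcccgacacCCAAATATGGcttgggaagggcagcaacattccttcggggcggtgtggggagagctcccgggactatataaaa
Actc1, chr2:114052876-114053125, minus strand: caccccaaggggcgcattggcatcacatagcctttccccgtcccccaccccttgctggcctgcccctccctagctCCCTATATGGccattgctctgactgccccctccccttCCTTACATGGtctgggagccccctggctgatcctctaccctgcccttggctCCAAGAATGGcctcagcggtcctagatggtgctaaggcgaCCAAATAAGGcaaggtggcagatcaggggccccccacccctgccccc
Acta2, chr19:34255374-34255623, minus strand: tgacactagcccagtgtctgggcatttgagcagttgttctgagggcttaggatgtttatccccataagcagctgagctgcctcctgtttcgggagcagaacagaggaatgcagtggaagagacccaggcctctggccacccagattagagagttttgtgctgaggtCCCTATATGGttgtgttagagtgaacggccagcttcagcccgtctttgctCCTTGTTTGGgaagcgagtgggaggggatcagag

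Acta1 held 3 marked matches, of which CCAAATATGG, at position -73 from the start, had all 6 core letters A or T. Actc1 held 4, of which CCAAATAAGG was the strict one. Acta2 held 2 looser matches and 0 strict ones, and its CCCTATATGG also occurs in Actc1. The annotated span of Acta2 reaches further upstream than the start used, so 212 of its 250 bases, both matches among them, lie inside that span, against 0 for Acta1 and Actc1. Over all 32851 promoter windows of this length in the table, 1.47% held a strict match, 8.59% a match of the looser form and 0.67% at least 2 matches of the looser form. A match is a string of letters and shows nothing about binding in these cells.

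Values are log2 ratios of the array channels. A log2 ratio of 1 is a 2-fold difference, and 0 is no difference. The sign of the ratio is not settled. Exact zeros carry a minus sign on fosBd/d replicate 1 and fosB-null replicate 2 and none on the other arrays, which is the mark that multiplication by -1 leaves, so these 2 arrays appear to have been turned before deposit. Even so, arrays that share a dye for the mutant ran against each other over all 9480 probes, with r = -0.463 between the replicates 1 and r = -0.369 between the replicates 2. With that turning undone, all 6 array pairs correlated positively, between 0.125 and 0.463. If the unturned ratio is Cy5 over Cy3, as Agilent defines it, values above 0 stand for higher RNA in fosBd/d cells but for lower RNA in fosB-null cells. For fosBd/d that direction is called likely here, with the dye names as its basis, and fosB-null is described by sign alone. The labels attach the colour red to Cy3 and green to Cy5, and a reading by colour turns both mutants round.

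All 4 muscle-type actins were positive on fosBd/d replicate 1 and negative on fosB-null replicate 1, as were 28.8% of all probes, and in each mutant the array with exchanged dyes did not repeat the value. Acta1, the skeletal actin, had log2 ratios of 1.58 and -0.16 on fosBd/d replicates 1 and 2. On fosB-null replicates 1 and 2 it had -1.26 and 0.46. The arrays of each mutant thus lay on opposite sides of 0, with the larger value on replicate 1 both times. Actg2, the enteric smooth muscle actin, stood at 1.69 and -0.21 on the fosBd/d arrays. Its fosB-null values were -1.19 and 0.54. Actg2 followed Acta1 on every array, and the gap between them was at most 0.11.

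Acta2, the vascular smooth muscle actin and the marker most often used for myofibroblasts, had 1.42 and 0.01 on fosBd/d replicates 1 and 2. It had -0.86 and 0.35 on fosB-null replicates 1 and 2. The direction on each array was that of Acta1 except on fosBd/d replicate 2, where Acta2 lay next to 0. Actc1, the cardiac actin, had 0.82 and 0.17 on the fosBd/d arrays. It had -0.36 and 0.30 on the fosB-null arrays. It was the flattest of the 4, with a span of 1.17 between its highest and lowest array, against 2.28 for Acta2, 2.84 for Acta1 and 2.88 for Actg2.

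**Figure D1:**
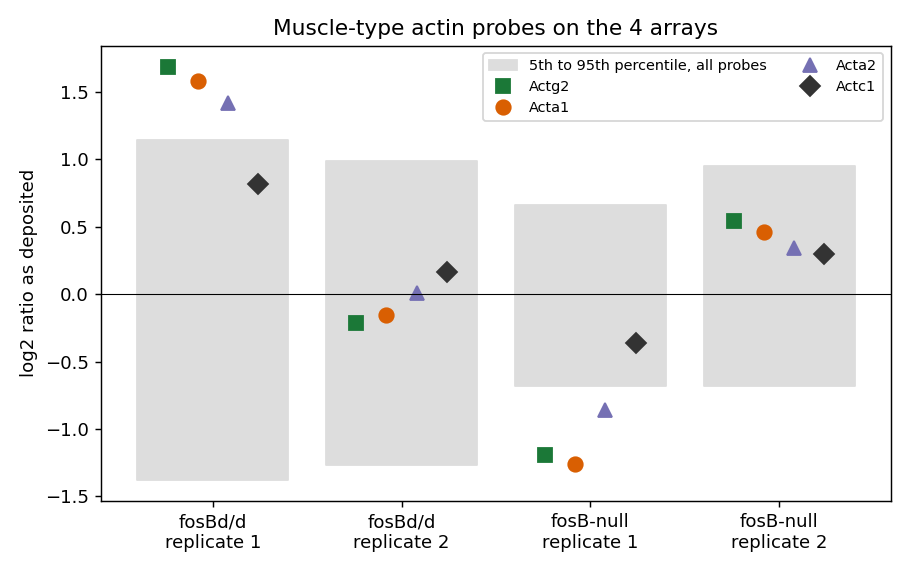
Log2 ratio as deposited (vertical axis) of the probes for Actg2, Acta1, Acta2 and Actc1 on each of the 4 arrays (horizontal axis), with grey boxes from the 5th to the 95th percentile of all 9480 probes. Actg2, Acta1 and Acta2 leave the box upwards on fosBd/d replicate 1 and downwards on fosB-null replicate 1, while all 4 genes lie inside it on replicate 2 of both mutants.

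In linear terms, the largest ratios on fosBd/d replicate 1 were 3.22-fold for Actg2, 2.99-fold for Acta1 and 2.68-fold for Acta2, while Actc1 was at 1.76-fold. On fosB-null replicate 1 the sizes were 2.28-fold for Actg2, 2.40-fold for Acta1, 1.81-fold for Acta2 and 1.28-fold for Actc1, all with a negative log2 ratio. On replicate 2 of either mutant the largest size among the 4 genes was 1.46-fold, for Actg2 in fosB-null.

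The position of each actin among all probes shows the same contrast between arrays. On fosBd/d replicate 1, Actg2 ranked 213th, Acta1 249th, Acta2 303rd and Actc1 858th from the top of 9480 probes. On fosB-null replicate 1, Acta1 ranked 117th, Actg2 135th, Acta2 284th and Actc1 1540th from the bottom. That array had the narrowest spread of all probes (log2 SD 0.436, against 0.824 on fosBd/d replicate 1), so its smaller log2 ratios placed Acta1, Actg2 and Acta2 closer to the end of the ranking. On fosBd/d replicate 2 the ranks from the top ran between 3142 for Actc1 and 6666 for Actg2, in the middle of the array. On fosB-null replicate 2 they ran between 1102 for Actg2 and 2150 for Actc1.

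By size, 3 of the 4 probes were at least 2-fold positive on fosBd/d replicate 1, where 6.42% of all probes were. On fosB-null replicate 1, 2 of the 4 were at least 2-fold negative, beside 2.09% of all probes. On both arrays of a swap, 0 of the 4 were at least 2-fold the same way. In fosBd/d, 1.24% of all probes were so on the positive side and 0.338% on the negative side. In fosB-null the shares were 0.158% and 0.0844%. Acta2 and Actc1 were positive on both fosBd/d arrays, a pattern that 21.7% of all probes had, and 0 of the 4 were negative on both (22% of probes). In fosB-null 0 of the 4 kept their sign, beside 18.6% of probes positive and 19% negative on both arrays. These shares come from the values that led to the choice of the genes, so nothing is read from the comparison.

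As means over both arrays, the fosBd/d ratios were 0.74 ± 1.34 for Actg2, 0.71 ± 1.23 for Acta1, 0.71 ± 1.00 for Acta2 and 0.49 ± 0.46 for Actc1 (log2, SD, n = 2 arrays). They lay on the side that is likely higher in the mutant, but for Actg2, Acta1 and Acta2 the SD exceeded the mean. Without fosBd/d replicate 1, Acta1 stood at -0.16 and Actg2 at -0.21, so that array alone gave the positive sign. The order of Actg2, Acta1 and Acta2 is not resolved, since their means lay within 0.03 of each other. Actc1 was lower by an amount that is also smaller than the SDs.

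The fosB-null means were -0.40 ± 1.22 for Acta1, -0.32 ± 1.23 for Actg2, -0.25 ± 0.85 for Acta2 and -0.03 ± 0.46 for Actc1 (log2, SD, n = 2 arrays). All 4 means were smaller than their SDs. Without fosB-null replicate 1 all 4 turned positive, between 0.30 for Actc1 and 0.54 for Actg2. The neighbours in this order did not differ beyond their spread either.

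Fitted with limma over all 9480 probes, with a coefficient for each mutant and a dye term, 0 probes passed an adjusted p of 0.05 in fosBd/d, in fosB-null or in the difference between them (0% in each), and the muscle-type actins were therefore not among any calls. At an unadjusted p under 0.05 there were 1503 probes in fosBd/d, 578 in fosB-null and 1320 in the difference, or 865 in the difference with the fosB-null sign turned, where chance gives 474. The fit has 1 residual degree of freedom. Arrays with exchanged dyes disagreed, and the dye term takes up the part of this that follows the sign marks on exact zeros. That part was 46.3% of the sum of squares over all probes. The residual is what remains of the disagreement, 12.5% of the sum of squares. The p-values therefore rest on this remainder and do not measure the full spread between arrays that the SDs above give. The labels do not say that the arrays came from separate cultures, so the spread may be technical.

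The difference of fosBd/d minus fosB-null was 1.11 for Acta1, 1.06 for Actg2, 0.97 for Acta2 and 0.52 for Actc1 as deposited (log2). With the fosB-null sign turned, it was 0.31 for Acta1, 0.42 for Actg2, 0.46 for Acta2 and 0.46 for Actc1. By the colour reading, the last set would carry the opposite sign. The size of the difference and the order of the 4 genes thus depended on the reading of the sign. Both mutants share wild-type RNA as the other channel.

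The values of the 4 actins were laid out by undoing the apparent turning, which gives the ratios one orientation with regard to the dyes. In that form Acta1 had -1.58, -0.16, -1.26 and -0.46 on fosBd/d replicates 1 and 2 and fosB-null replicates 1 and 2. Actg2 had -1.69, -0.21, -1.19 and -0.54. Both genes were negative on all 4 arrays, whichever line carried which dye. Acta2 had -1.42, 0.01, -0.86 and -0.35, and Actc1 had -0.82, 0.17, -0.36 and -0.30. Those genes were negative on 3 arrays and above 0 on fosBd/d replicate 2.

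The mean of the 4 arrays in that orientation was -0.91 ± 0.66 for Actg2, -0.87 ± 0.67 for Acta1, -0.65 ± 0.62 for Acta2 and -0.33 ± 0.40 for Actc1 (log2, SD, n = 4 arrays). By the Cy5 over Cy3 reading, this mean is the part of the ratio that stays the same when the dyes are exchanged. It ranked 218th from the bottom of all probes for Actg2, 234th for Acta1, 428th for Acta2 and 1486th for Actc1. It was larger in size than the fosBd/d mean of the same gene for Actg2 and Acta1, and smaller for Acta2 and Actc1.

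The 4 values of a probe can be divided exactly into the fosBd/d mean, the fosB-null mean, the mean with the turning undone and a remaining component. Of the sum of squares of Actg2, 71.6% fell to the mean with the turning undone, 23.7% to the fosBd/d mean and 4.53% to the fosB-null mean. For Acta1 the shares were 69.2%, 23.4% and 7.43%, and for Acta2 they were 59.5%, 35.6% and 4.52%. Actc1 differed in that the fosBd/d mean took 53.0% and the mean with the turning undone 46.8%. Over all probes the shares were 46.3% for the mean with the turning undone, 30.6% for fosBd/d, 10.5% for fosB-null and 12.5% for the remainder. The remaining component was small in the actins, between -0.05 and 0.00 log2 units, or at most 0.382% of the sum of squares. If instead all 4 deposited ratios were mutant over wild type, this remaining component would be the one that follows the dye.

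**Figure D2:**
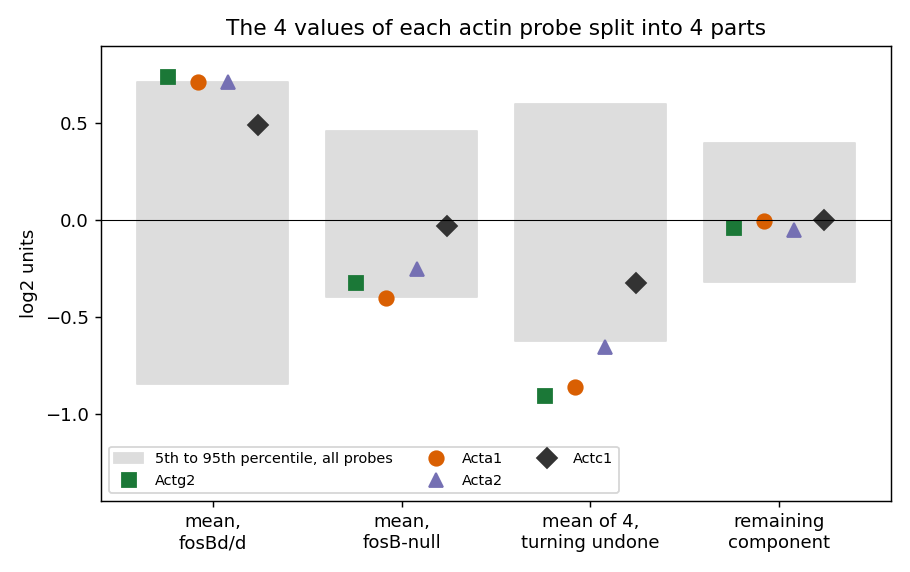
The 4 values of each actin probe (Actg2, Acta1, Acta2, Actc1) divided into the mean of the fosBd/d arrays, the mean of the fosB-null arrays, the mean of the 4 arrays with the apparent turning undone, and the remaining component, in log2 units on the vertical axis. Grey boxes run from the 5th to the 95th percentile of all 9480 probes, and Actg2, Acta1 and Acta2 fall below the box in the third part while all 4 lie near 0 in the last.

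The paralogues resembled one another to different degrees. The root mean square difference over the 4 arrays was 0.08 log2 units between Acta1 and Actg2, and 0 other probes came closer to either. It was 0.24 between Acta1 and Acta2 and 0.26 between Acta2 and Actg2. For Acta1, 9 probes lay closer than Acta2 did, and for Acta2, 25 lay closer than Acta1. For Acta2, 33 lay closer than Actg2, and for Actg2, 12 lay closer than Acta2. Actc1 stood further off, at 0.40 from Acta2, 0.62 from Acta1 and 0.64 from Actg2, and 1418, 4687 and 5066 of the 9480 probes lay closer to Actc1 than Acta2, Acta1 and Actg2 did. Seen from the other side, 166 probes were closer to Acta2 than Actc1 was, 321 to Acta1 and 359 to Actg2. For scale, the first and second probes of the 502 genes with several probes differed by a median of 0.53, with quartiles of 0.34 and 0.80. The distances to Actc1 lay between these quartiles, and those among Acta1, Acta2 and Actg2 lay below the lower one. A distance between the quartiles is no special likeness, since 5066 probes lay closer to Actc1 than Actg2 did. The genes were chosen by these values, so nothing more is read from the comparison.

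The coding sequences of these genes are close relatives, and cDNA probes can bind RNA of more than one of them. The signal of a probe therefore cannot be assigned to 1 paralogue, and the part of shared binding in the likeness was not tested. The ratios also give no level, so whether ES cells held much or little of any actin RNA cannot be read from them. A ratio from bulk RNA cannot tell fewer cells of a type from less RNA per cell.

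Genes outside the family shared the array pattern. The gene nearest to both Acta1 and Actg2 was Akap12, which encodes a scaffold that anchors protein kinase A. Akap12 had 1.60 and -0.10 on the fosBd/d arrays and -1.13 and 0.70 on the fosB-null arrays, a root mean square difference of 0.14 from Acta1 and 0.11 from Actg2. Pacsin3, a membrane-bending protein, was among the 3 nearest to Acta1, Acta2 and Actg2 alike, at 0.18, 0.14 and 0.18. It stood at 1.56, -0.21, -0.93 and 0.32 in the same array order. Rnf220, a ubiquitin ligase, lay 0.17 from Acta1, and the adhesion protein gene Nectin2 lay 0.19 from Actg2. Nearest to Acta2 were the receptor kinase gene Ephb4 (1.26, -0.05, -0.96 and 0.51) and the myosin-binding protein gene Mybph (1.37, 0.08, -0.65 and 0.48), each at 0.13. The likeness is over 4 arrays that share the wild-type channel. Of all probes, 13% had the signs of Acta1 and Actg2 (plus, minus, minus, plus) and 4.94% those of Acta2 and Actc1 (plus, plus, minus, plus).

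**Figure D3:**
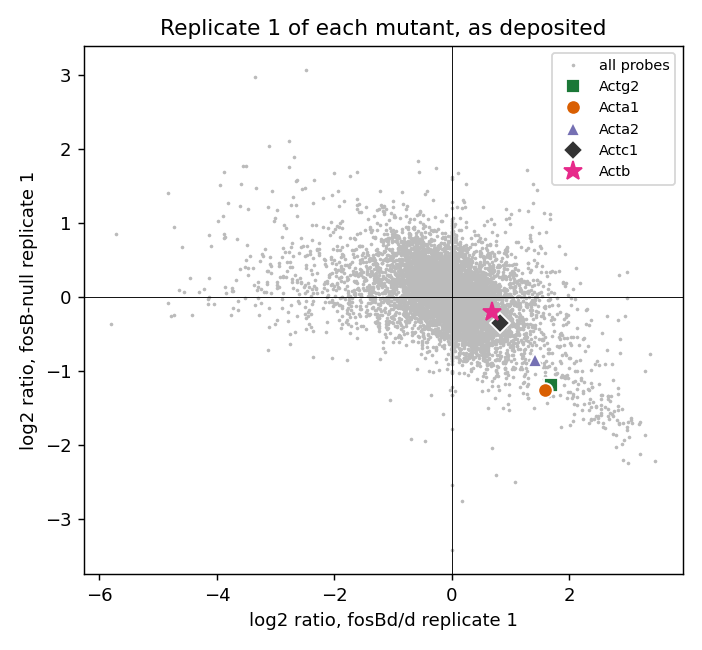
Log2 ratio on fosBd/d replicate 1 (horizontal axis) against fosB-null replicate 1 (vertical axis), as deposited, for all 9480 probes in grey, with the 4 muscle-type actins and the cytoskeletal actin Actb marked. The cloud slopes downwards (r = -0.463), and Actg2, Acta1 and Acta2 lie towards its lower right end, with Actc1 and Actb closer to the middle of the cloud on the same side.

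Actb, the cytoskeletal β-actin that nearly every cell makes, had 1 probe. Its values were 0.69 and -0.14 on the fosBd/d arrays and -0.20 and 0.29 on the fosB-null arrays, which are the signs of Acta1 and Actg2 at smaller size. Its nearest muscle-type paralogue was Actc1, at a root mean square difference of 0.18, against 0.50 for Acta2, 0.70 for Acta1 and 0.72 for Actg2. Of the actin-related proteins, the chromatin remodelling subunit Actl6a (0.60, -0.30, -0.90 and 0.43) had the signs of Acta1 as well. Actr8, another remodelling subunit, had the opposite sign on every array, at -0.13, 0.41, 0.63 and -0.26. Actl7b, a testis form, stood at 0.28, -0.23, 0.34 and 0.09. Over the 4 probes of this list the median was 0.15 in fosBd/d, against 0.71 for the muscle-type actins and -0.02 for all probes, and 0 passed limma.

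Contractile partners of the smooth muscle actins had fosBd/d means spread around 0. The smooth muscle list had 11 probes for 10 of its 22 genes, with a median of 0.00 in fosBd/d and 0.01 in fosB-null, and 0 passed limma. Tagln, an actin-binding protein and a familiar companion of Acta2, had 0.45, -0.44, -0.53 and 0.09 over the arrays and a fosBd/d mean of 0.00 ± 0.63. Those are the signs of Acta1, which 13% of all probes had. They occurred in 4 of the 11 probes. One of them was the intermediate filament gene Des, which stood at 0.51, -0.31, -1.14 and 0.26. Cnn1, the smooth muscle calponin, was negative on both fosBd/d arrays (-0.71 and -0.90) and positive on both fosB-null arrays (0.11 and 0.35), with limma adjusted p-values of 0.297 and 0.651. The smoothelin gene Smtn had a fosBd/d mean of 0.54 ± 0.65. The light chain gene Myl6 was at -0.17 ± 0.05, and the myosin phosphatase subunit Ppp1r12b at 0.18 ± 0.25. The 2 probes of the myosin heavy chain Myh11 gave -0.21 ± 1.42 and 0.30 ± 0.34.

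The sarcomere list, which holds the thick and thin filament partners of Acta1 and Actc1, had 26 probes for 24 of 44 genes. Its median was 0.09 in fosBd/d and 0.07 in fosB-null, and 0 passed limma. Of its probes, 7 were positive and 7 negative on both fosBd/d arrays, beside 21.7% and 22% of all probes. A sign pattern of the actins occurred in 7 of its probes and in 18% of all probes. The muscle caveolin gene Cav3 was at least 2-fold negative on both fosBd/d arrays, at -2.03 and -1.11, and also negative in fosB-null, at -0.82 and -0.63 (adjusted p = 0.297 and 0.651 in limma). The actins Acta1 and Actc1 had means on the other side of 0 from Cav3 in fosBd/d. On fosBd/d replicate 2 alone, Acta1 was at -0.16, on the same side as Cav3.

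Srf, which encodes the factor that binds CArG boxes, had 0.86 and 0.00 on the fosBd/d arrays and -0.90 and 0.71 on the fosB-null arrays. Its fosBd/d replicate 2 value is an exact 0 in the file, and Acta2 lay at 0.01 there. Like Acta2 it was positive on fosBd/d replicate 1, and in fosB-null it was negative on replicate 1 and positive on replicate 2. Its fosBd/d mean was 0.43 ± 0.61 (adjusted p = 0.378, limma). The list of muscle transcription factors, with 10 probes for 8 of 22 genes, had a median of 0.14 in fosBd/d and 0.09 in fosB-null, and 0 passed. Gata6, shared with the endoderm list, was the member at least 2-fold on both fosBd/d arrays (1.95 and 1.55).

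Other genes that SRF and its coactivators are known to regulate had a fosBd/d median of 0.47 and a fosB-null median of -0.12 over 13 probes for 13 of 26 genes. Of these, 8 were positive and 1 negative on both fosBd/d arrays, beside 21.7% and 22% of all probes. In limma, 0 passed. In contrast to the actins, the secreted matrix protein gene Ccn1 (1.38 and 1.52) and the focal adhesion gene Zyx (1.08 and 1.10) were at least 2-fold on both fosBd/d arrays. Their fosB-null values were -0.40 and -0.31 for Ccn1 and -0.57 and -0.47 for Zyx. Their means with the turning undone were 0.01 for Ccn1 and -0.02 for Zyx, against -0.87 for Acta1. The sign patterns of the actins occurred in 1 of these 13 probes, beside 18% of all probes.

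Actin filament regulators, with 31 probes for 29 of 48 genes, had a median of 0.12 in fosBd/d and 0.02 in fosB-null, and 0 passed limma. Gsn, which severs and caps actin filaments, was the member at least 2-fold on both fosBd/d arrays (1.91 and 1.36), and it had -0.64 and -0.40 in fosB-null (adjusted p = 0.297 and 0.651). Of these 31 probes, 10 had one of the sign patterns of the muscle-type actins, beside 18% of all probes. Gsn did not, since both of its fosB-null arrays were negative.

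**Figure D4:**
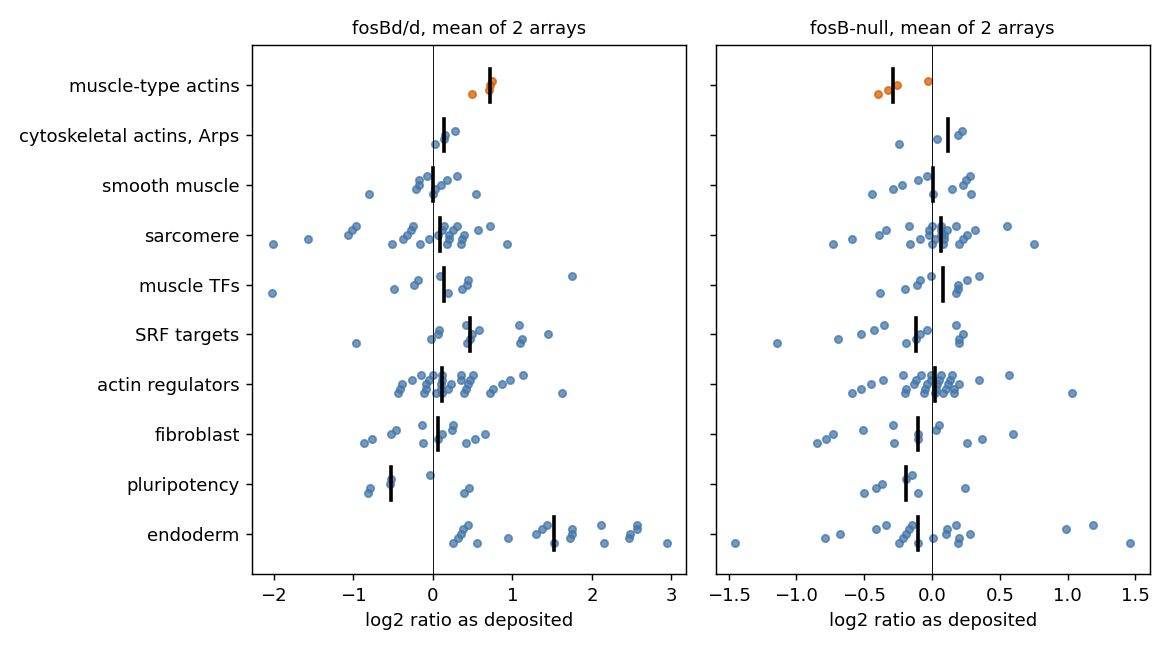
Mean log2 ratio as deposited of each probe (points) in the muscle-type actins and in 9 gene lists, with black bars at the medians, for fosBd/d on the left and fosB-null on the right. The muscle-type actins have a median of 0.71 in fosBd/d and -0.29 in fosB-null, between the SRF targets (0.47) and the endoderm markers (1.52) in fosBd/d. The actins were chosen by these values, so nothing is read from their place.

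Markers of other cell types were set beside the actins. Fibroblast and feeder markers had 13 probes for 12 of 23 genes. Their median was 0.07 in fosBd/d (range -0.87 to 0.65) and -0.10 in fosB-null (range -0.85 to 0.60). Their highest fosBd/d means were 0.65 ± 0.05 for S100a4 and 0.53 ± 0.30 for Col6a1, and their lowest were -0.87 ± 1.53 for one Col5a2 probe and -0.76 ± 0.43 for Loxl1. In fosB-null the ends were Thy1 (0.60 ± 0.89) and Pdgfrb (0.37 ± 1.45), and Tnc (-0.85 ± 0.03) and Col1a1 (-0.78 ± 0.05). Pluripotency markers had 7 probes for 7 of 18 genes, and Pou5f1, Nanog and Sox2 were not among them. Their median was -0.52 in fosBd/d (range -0.82 to 0.45) and -0.19 in fosB-null (range -0.50 to 0.24). On both fosBd/d arrays 2 were positive and 4 negative, beside 21.7% and 22% of all probes. Endoderm markers had a median of 1.52 in fosBd/d and -0.10 in fosB-null over 21 probes for 20 of 31 genes. Of these probes, 14 were at least 2-fold positive on both fosBd/d arrays (1.24% of all probes). On both fosB-null arrays 2 were at least 2-fold positive and 1 negative (0.158% and 0.0844% of all probes). The positive ones were Cited1 (1.05 and 1.34) and 1 of 2 probes of Amn (1.44 and 1.48). The negative one was Thbd (-1.01 and -1.88). In all 3 lists 0 probes passed limma, which does not show an absence of change. The endoderm gene F3, at 2.86 and 3.02 on the fosBd/d arrays, had an adjusted p of 0.297 in limma. That was the smallest value of all probes in fosBd/d. The part of these markers in the actin values was not tested. The lists here and above were chosen with earlier results of these data known. Nothing is therefore read from their counts beside the shares of all probes.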

How the data were processed

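The value that the authors deposited for each probe on each array was read as the log10 ratio of the 2 channels, which is how Agilent Feature Extraction, named in the submitters' processing notes, defines its log ratio. The version, background correction and dye normalization are not stated in the labels. The deposited values were multiplied by the log2 of 10, so every fold rests on that base. Each array had 9480 values with a median of 0.00. The number of arrays limits the precision. Of the probes, 6566 had 1 gene, 392 several and 2522 none in an annotation of 2007, with symbols updated by gene identifier for 6496. Limma 3.58.1 (R 4.3.3) was fitted to all 4 arrays with Benjamini-Hochberg adjustment (two-sided) and tested on simulated data. Its dye term followed the sign marks on exact zeros. Members and lists were chosen with earlier results of these data known. Named were all 4 members, and list genes at least 2-fold on both arrays of a mutant, otherwise the 2 highest and 2 lowest per mutant, with Actb, Actg1, Srf and Tagln where measured, and the 3 genes nearest to each actin that reached 2-fold on an array. Some endoderm and pluripotency genes that met this rule are given only within counts and medians.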

Additional observations from a re-analysis of the deposited data

Results flagged for a closer look

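Some genes set beside the actins had both fosBd/d arrays on one side of 0 and both fosB-null arrays on the other, as deposited. The 4 muscle-type actins did not. The differences of fosBd/d minus fosB-null (log2) were 1.81 for Ccn1, 1.61 for Zyx, 2.15 for Gsn, 0.46 for Ppp1r12b, -0.44 for Myl6 and -1.03 for Cnn1 among the contractile and actin-related genes. They were 0.92 for S100a4 and 0.97 for Tnc, and 0.59 for Lin28a, 0.85 for Utf1 and -1.07 for Nr5a2. Among the endoderm markers they were 4.02 for Thbd, 3.62 for F3, 3.25 for Lamb1, 2.82 for Col4a1, 2.57 for Lama1 and 1.74 for Pdgfra. These 17 are the genes named by the rule. On fosBd/d replicate 2, Ppp1r12b lay at 0.00 after rounding and Tnc at 0.02, so their sign there rests on a value next to 0. In all, 31 of the 134 probes in the lists had such opposite signs. The share over all probes was not counted, so nothing is read from this number. The opposition of signs was not tested, and in limma the adjusted p of these differences lay between 0.357 and 0.404. With the fosB-null sign turned, these genes would have the same sign in both mutants.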

How the results depend on the processing

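Leaving out 1 array of a mutant gave the other array's value. For fosBd/d the range was -0.16 to 1.58 for Acta1, -0.21 to 1.69 for Actg2, 0.01 to 1.42 for Acta2 and 0.17 to 0.82 for Actc1. For fosB-null it was -1.26 to 0.46 for Acta1, -1.19 to 0.54 for Actg2, -0.86 to 0.35 for Acta2 and -0.36 to 0.30 for Actc1. Scaling all arrays to a common SD, the mean of the array SDs, kept every sign. It gave Acta1 0.51 in fosBd/d and -0.63 in fosB-null, Actg2 0.53 and -0.53, Acta2 0.53 and -0.41, and Actc1 0.38 and -0.08. Quantile normalization, added after the values were seen, kept every sign too. Centring the arrays or treating exact zeros as missing left the 8 means as they were. Limma passed 0 probes without the dye term (no replicate block by dye orientation), without any 1 array, with 1-gene probes alone, and with a dye term signed by the labels, which was added after the values were seen. At an unadjusted p under 0.05 the counts for fosBd/d, fosB-null and their difference were 1503, 578 and 1320 as reported, 709, 179 and 539 without the dye term, and 270, 47 and 153 with the label-signed one. At 1.5-fold on both arrays, fosBd/d had 314 positive and 131 negative probes and fosB-null 55 and 48, and 0 of the actins. With arrays scaled to the common SD the 2-fold counts were 75 and 18 in fosBd/d and 23 and 17 in fosB-null.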

Other observations

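Among genes chosen after their values were seen, probes annotated to the same muscle gene disagreed. The 2 probes of Myl3, a ventricular myosin light chain, had -3.86 and 1.26 on fosBd/d replicate 1 and -0.17 and 0.59 on replicate 2. The probe of Mef2a, a muscle transcription factor, with the lowest value had -4.45 on fosBd/d replicate 1 and 0.42 on replicate 2, while its other probes had -0.29 and 0.28 on replicate 1. Each muscle-type actin had a single probe, so no such check was possible within a gene.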
